A study of Homo sapiens with 4 samples.

Results

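The mitochondrial genome encodes 13 mRNAs, and 10 of these were examined in RNA immunoprecipitated with the RNA-binding protein TIA1 and in total RNA. They are MT-CO1, MT-CO2, MT-CO3, MT-ATP6, MT-CYB, MT-ND1, MT-ND2, MT-ND3, MT-ND4 and MT-ND5. Members were chosen by the transcript identifier of each array probe, which was matched to genes on chromosome M of GRCh37. This gave 11 probes for the 10 listed mRNAs among 13039 genes tested. The other 3 mitochondrial mRNAs, MT-ATP8, MT-ND4L and MT-ND6, had 1 probe each and are described beside them. By these identifiers 0 probes were named for a mitochondrial rRNA or tRNA, or for a nuclear copy of a mitochondrial gene. Probe sequences were not analysed here, so hybridization of the listed probes to RNA of nuclear copies was not tested.

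All samples came from KYSE180, an established line of esophageal squamous cell carcinoma (ESCC) cells, with no genetic change or treatment named in the labels. TIA1 RIP (replicates 1 and 2) is RNA captured with an anti-TIA1 antibody from cytoplasmic lysate, and total RNA (input, replicates 1 and 2) is RNA without immunoprecipitation. Whether the total RNA was taken from the cytoplasmic lysate or from whole cells is not given in the sources used here, so that for RNAs held inside mitochondria a ratio of TIA1 RIP to total RNA cannot be told apart from a difference between these fractions. Each of the 4 RNAs was labelled from 0.2 μg and hybridized to a single-colour Agilent array, all 4 on the same slide. In bulk RNA, fewer cells of a kind and less RNA per cell cannot be told apart. A single cell line was used, and nothing states that the replicates were separate cultures, so that the p-values below measure the spread between these arrays only. IgG immunoprecipitates were not analysed here, so a signal in TIA1 RIP cannot be told apart from RNA that was carried along without TIA1.

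All 8 squamous epithelial markers examined, among them KRT5, KRT14 and TP63, were well above background on all 4 arrays. The fibroblast marker COL1A2, the endothelial marker PECAM1 and the liver marker ALB were not well above background on any array, and the leukocyte marker PTPRC was so on 3. Scaled log2 signals are the log2 of a spot's signal after subtraction of that array's own 75th percentile (the 75th percentile scale). Before scaling, this percentile was a signal of 1514 and 1271 for TIA1 RIP, and of 714 and 69.9 for total RNA, in the order of the replicates. Total RNA replicate 2 thus stood apart, with 32.2% of its spots well above background against 45.8% to 48.4% on the other arrays, and the medians of the 10 mRNAs and of the lists of nuclear genes are also given against each total RNA array alone.

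Mitochondrial DNA is transcribed from both strands into long precursors. Transfer RNAs lie between most of the coding sequences, and their excision releases the mRNAs, which then receive a short poly(A) tail inside the organelle. The mRNAs are translated by mitochondrial ribosomes into core subunits of the respiratory chain and of ATP synthase, and they are held within the mitochondrial membranes. TIA1 is a nuclear and cytoplasmic protein known to bind stretches of uridine.

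The uridine content of the 10 listed mRNAs lay between 23.8% (MT-ND1) and 30.3% (MT-ND3), against a median of 24.7% for 11619 nuclear mRNAs. MT-ND6, which is encoded on the opposite strand, held 37.7% uridine. A run of 5 uridines (TTTTT on the sense strand, overlapping matches counted, the opposite strand not searched) was present in 5 of the 10 listed mRNAs. It was present in the last 1042 bases, the length of MT-ND2, of 81.1% of nuclear mRNAs, and in the last 684 bases, the length of MT-CO2, of 74.2%. The following windows of 30 bases hold the longest run of each of 6 mRNAs, shown in capitals. They are the listed mRNAs with the highest (MT-ND2) and the lowest (MT-CO2, MT-ND1) ratio of TIA1 RIP to total RNA, a further pair with long runs (MT-ND4, MT-CO3), and MT-ND6.
MT-ND2, chrM:4536-4565, plus strand: agctcgcactgaTTTTTTacctgagtaggc
MT-ND4, chrM:10868-10897, plus strand: atccctctactaTTTTTTaaccaaatcaac
MT-CO3, chrM:9466-9495, plus strand: ttacctcagaagTTTTTTTcttcgcaggat
MT-CO2, chrM:7664-7693, plus strand: gccctcataatcaTTTTccttatctgcttc
MT-ND1, chrM:4067-4096, plus strand: tctacacaacataTTTTgtcaccaagaccc
MT-ND6, chrM:14493-14522, minus strand: tgggtttaatagTTTTTTTaatttatttag

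MT-ND2 and MT-ND4 held 3 such matches each and MT-CO3 held 6, whereas MT-CO2, MT-ND1, MT-ND3, MT-CYB and MT-ND5 held 0. MT-ND6, outside the list, held 3. Of the 3 listed mRNAs with the highest ratio, MT-ND2 and MT-ND4 held 3 matches each and MT-ND5 held 0. MT-CO2 and MT-ND1, with the lowest ratios of the list, held 0. A relation between the run and the ratio was not tested. The 3′ ends are shown for 4 mRNAs because the tail completes the stop codon of many of them. Of all 13 coding sequences, 6 end within a codon. Capitals mark the last codon or the part of it that the genome encodes.
MT-ND2, chrM:5488-5511, plus strand: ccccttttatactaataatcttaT
MT-ND1, chrM:4239-4262, plus strand: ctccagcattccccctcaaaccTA
MT-CO2, chrM:8246-8269, plus strand: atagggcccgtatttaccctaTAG
MT-ND6, chrM:14149-14172, minus strand: attgagattgctcgggggaatAGG

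On the 75th percentile scale, all 10 listed mRNAs had a mean log2 signal in TIA1 RIP below that in total RNA, while 51.4% of all genes had such a ratio below 0, and this direction turned for 8 of the 10 under quantile normalization, for all 10 under scaling to the E1A spike-in controls, for 3 under normexp background correction and for 1 under a percentile over probes detected on all arrays. The log2 ratios ranged from -0.13 (MT-ND2) to -2.38 (MT-CO2), with a median of -0.91 for the 10 mRNAs and of -0.04 for all genes. The direction also rested on total RNA replicate 2. Against that array all 10 were lower in both TIA1 RIP arrays (49.7% of all genes) and 0 were higher (39.6% of all genes), with a median of -1.67 on the mean of the TIA1 RIP arrays. Against total RNA replicate 1, 6 were lower (35.5% of all genes) and 4 higher (41.2% of all genes) in both TIA1 RIP arrays, with a median of -0.43. The median of all genes was 0.07 against total RNA replicate 1 and -0.29 against replicate 2. Before scaling, log2 ratios of the 10 against total RNA replicate 2 ran from 0.58 to 3.28 for TIA1 RIP replicate 1. They ran from 0.56 to 3.31 for TIA1 RIP replicate 2. Against total RNA replicate 1 they ran from -0.35 to 1.70 and from -1.55 to 2.07, in the same order. All 10 thus had a higher signal than in total RNA replicate 2 before scaling and a lower one after it.

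None of the 10 passed the test. With limma and Benjamini-Hochberg adjustment over all 13039 genes, 0 genes were higher (0%) and 0 lower (0%) at an adjusted p-value under 0.05, and the lowest adjusted p-value among the 10 mRNAs was 0.776. At an unadjusted p-value under 0.05, 1 of the 10, MT-ND1, was lower (4.02% of all genes) and 0 were higher (1.10% of all genes). With the replicate number as a block 0 of the 10 were called higher (0.437% of all genes) and 0 lower (2.29% of all genes). The block fit gave each of the 10 the same standard error (0.89), so its p-values for them followed the size of the ratio alone. Without total RNA replicate 1, the log2 ratios were -2.32 for MT-CO1 and -3.59 for MT-CO2. That fit took the spread from the TIA1 RIP arrays alone, so its calls are not given.

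The complex I mRNAs were examined first. Complex I (NADH dehydrogenase) passes electrons from NADH to ubiquinone, and the ND mRNAs encode its membrane subunits. MT-ND2 (chromosome M, 4470 to 5511, plus strand) had a scaled log2 signal of 7.74 and 8.05 in TIA1 RIP replicates 1 and 2, and of 7.12 and 8.92 in total RNA replicates 1 and 2. Both TIA1 RIP values lay between the total RNA values, so the groups overlapped. Its log2 ratio was -0.13 (standard error 0.91, adjusted p = 0.976).

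MT-ND5 (12337 to 14148) showed the same arrangement, with 6.33 and 7.08 in TIA1 RIP and 5.84 and 8.11 in total RNA, and its log2 ratio was -0.27 (standard error 0.99). MT-ND4 (10760 to 12137) had a log2 ratio of -0.30 (standard error 0.95). MT-ND3 (10059 to 10404) had 7.27 and 7.28 in TIA1 RIP against 7.19 and 8.92 in total RNA. For MT-ND2, MT-ND5, MT-ND4 and MT-ND3, TIA1 RIP was higher than total RNA replicate 1 and lower than total RNA replicate 2 in each pair of arrays. Without total RNA replicate 2 their log2 ratios were 0.77, 0.87, 0.70 and 0.09 in this order, and none passed the test.

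MT-ND1 (3307 to 4262), a further complex I mRNA, differed from the other 4. Its scaled log2 signal was 4.47 and 2.91 in TIA1 RIP and 5.29 and 6.54 in total RNA, so that both TIA1 RIP arrays lay below both total RNA arrays. The log2 ratio was -2.22 (standard error 0.93, unadjusted p = 0.0478 and adjusted p = 0.776 from limma). Its TIA1 RIP arrays were also the farthest apart of any listed mRNA, with an SD of 1.10 (n = 2) against 0.01 to 0.53 for the other 9. Before scaling, its signal was 33561 and 9562 in TIA1 RIP and 27992 and 6498 in total RNA, lower in replicate 2 of both groups.

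The complex IV mRNAs encode the catalytic core of cytochrome c oxidase, where electrons reach oxygen. MT-CO2 (7586 to 8269) had a scaled log2 signal of 7.34 and 7.87 in TIA1 RIP and of 8.77 and 11.20 in total RNA. Its groups did not overlap, and its log2 ratio of -2.38 (standard error 1.01, unadjusted p = 0.0506 and adjusted p = 0.776 from limma) was the lowest of the 10. MT-CO1 (5904 to 7445), which encodes the subunit that reduces oxygen, had 7.87 and 8.15 in TIA1 RIP and 8.54 and 10.33 in total RNA. MT-CO3 (9207 to 9990) had 7.88 and 8.02 in TIA1 RIP and 8.45 and 9.03 in total RNA. The TIA1 RIP arrays thus lay below both total RNA arrays for each complex IV mRNA, with log2 ratios of -1.42 for MT-CO1 and -0.79 for MT-CO3.

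MT-CYB (14747 to 15887) encodes cytochrome b of complex III, which takes electrons from ubiquinol. Its scaled log2 signal was 7.93 and 8.03 in TIA1 RIP and 8.34 and 9.67 in total RNA, with a log2 ratio of -1.03 (standard error 0.84). MT-ATP6 (8527 to 9207) encodes the subunit that forms the proton channel of ATP synthase. Its values were 7.50 and 7.31 in TIA1 RIP and 8.30 and 9.16 in total RNA, with a log2 ratio of -1.33 (standard error 0.80). Neither overlapped between the groups. In all, 6 of the 10 mRNAs were lower without overlap (21.7% of all genes) and 0 were higher without overlap (19.4% of all genes). Neighbours in the order of the ratios differed by 0.80 at most (MT-CO1 and MT-ND1), less than the standard error of either ratio in each pair. That error includes shifts of whole arrays that both mRNAs share, so it does not measure the spread of a gap. The order between neighbours was not tested.

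**Figure D1:**
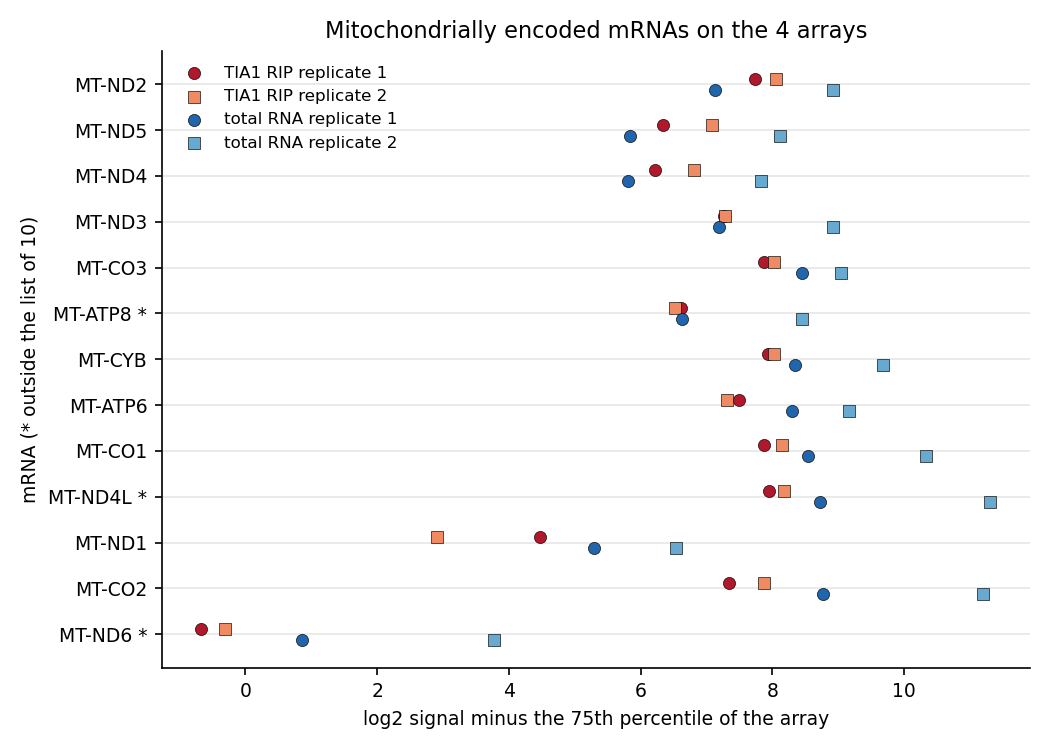
Scaled log2 signal (x axis, log2 signal minus the 75th percentile of the array) of the 13 mitochondrially encoded mRNAs (y axis, highest ratio at the top) on each array, red and orange for TIA1 RIP and blue for total RNA, circles for replicate 1 and squares for replicate 2. Total RNA replicate 2 is the highest of the 4 arrays for every mRNA, and MT-ND2, MT-ND5, MT-ND4 and MT-ND3 in TIA1 RIP lie above total RNA replicate 1; under quantile normalization and spike-in scaling the direction of most mRNAs turned.

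Of the other 3 mitochondrial mRNAs, MT-ATP8 lay in the middle of the same order, MT-ND4L in its lower part and MT-ND6 below it. MT-ATP8, which shares an mRNA with MT-ATP6, had 6.61 and 6.52 in TIA1 RIP and 6.63 and 8.45 in total RNA (log2 ratio -0.97). MT-ND4L, which shares an mRNA with MT-ND4, had 7.95 and 8.17 in TIA1 RIP and 8.72 and 11.31 in total RNA (log2 ratio -1.95). MT-ND6 is known for lacking a stable poly(A) tail. Whether this bears on its ratio, which was the lowest of all 13, was not tested. Before scaling, the MT-ND6 signal was 953 and 1023 in TIA1 RIP and 1290 and 960 in total RNA, so that most of its scaled ratio came from the array percentiles. Its scaled log2 signal was -0.67 and -0.31 in TIA1 RIP and 0.85 and 3.78 in total RNA, with a log2 ratio of -2.81 (standard error 1.09, unadjusted p = 0.0369 and adjusted p = 0.776 from limma), and 2.37% of all genes had a lower ratio. Against total RNA replicate 1 alone its log2 ratio was -1.34, and without that array it was -4.27.

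The study compared each mRNA with GAPDH, an abundant cytosolic mRNA, at a limit of 2.5-fold. It required this on the arrays and in sequencing alike, whereas the counts here rest on the arrays alone. GAPDH itself had a log2 ratio of -2.06 on the 75th percentile scale, below 8 of the 10 listed mRNAs. On the means, 3 of the 10 lay more than 2.5-fold above GAPDH, against 72.4% of all genes, and 0 lay more than 2.5-fold below it (1.62% of all genes). The 3 were MT-ND2 (3.81-fold), MT-ND5 (3.46-fold) and MT-ND4 (3.39-fold). They passed the fold in all 4 pairs of a TIA1 RIP and a total RNA array, as did 26.2% of all genes. MT-ND3 (2.43-fold) and MT-CO3 (2.40-fold) lay just within the limit, and MT-CO2 (0.803-fold) was the lowest.

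Relative to GAPDH, 7 of the 10 were higher in both TIA1 RIP arrays than in both total RNA arrays (76.1% of all genes). In limma on these values 0 genes passed an adjusted p-value of 0.05 (0%), and MT-ND2 had the lowest p-value of the 10 (log2 enrichment 1.93, standard error 0.66, unadjusted p = 0.0389 and adjusted p = 0.221). It was the only one of the 10 at an unadjusted p-value under 0.05, against 19.5% of all genes in the same direction, and 0 of the 10 were lower at that threshold (0.759% of all genes). With ACTB as the reference 3 of the 10 passed the fold, and with the median of all genes as the reference 0 passed it. Without total RNA replicate 1 the count relative to GAPDH was 6, and with quantile normalization it was also 6. The share of all genes past the fold is not given for these other references and settings. A change in these counts can therefore not be ascribed to the mitochondrial mRNAs.

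Differences among the mitochondrial mRNAs do not move with the scaling of whole arrays, since they are taken within each array. The mean log2 signal of the 10 listed mRNAs was therefore subtracted on each array, a measure chosen after the values had been seen. MT-ND2 lay 0.68 and 0.90 above this mean in TIA1 RIP and 0.24 and 0.05 below it (-0.24 and -0.05) in total RNA. The groups did not overlap, and the difference of TIA1 RIP from total RNA was 0.94. MT-ND5 (0.80), MT-ND4 (0.77) and MT-ND3 (0.29) were also higher relative to the mitochondrial mean, each without overlap. All of these 4 encode complex I subunits, but so do MT-ND1 (-1.16) and, outside the list, MT-ND4L (-0.89) and MT-ND6 (-1.74), which were lower without overlap.

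At the other end, MT-CO2 lay 0.28 and 0.72 above the mitochondrial mean in TIA1 RIP and 1.40 and 2.23 above it in total RNA, a difference of -1.31. MT-ND1 had a difference of -1.16 and MT-CO1 of -0.36. In this measure 4 of the 10 were higher (43.8% of all genes) and 3 lower (8.46% of all genes) without overlap. An exact two-sided permutation test of 2 arrays against 2 cannot give a p-value below 0.333, and since the measure was chosen after its values were seen, these differences are given without a test. MT-CO3 (0.27), MT-CYB (0.04) and MT-ATP6 (-0.26) overlapped between the groups.

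Of 12 other settings, 5 (other array scalings, the detection filters and the block) leave these differences as they are by construction, and 7 can move them. Under those 7 and as reported, MT-ND2 (0.83 to 1.17), MT-ND5 (0.40 to 1.13), MT-ND4 (0.41 to 1.01) and MT-ND3 (0.22 to 0.35) were above the mitochondrial mean in TIA1 RIP relative to total RNA, quantile normalization included. MT-CO2 (-1.72 to -0.89) and MT-ND1 (-2.25 to -0.33) were below it throughout, as were MT-ND4L and MT-ND6 from outside the list. MT-CO1 was above it with quantile normalization (0.13) and MT-ATP6 without total RNA replicate 1 (0.11), and both were below it under the others.

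**Figure D2:**
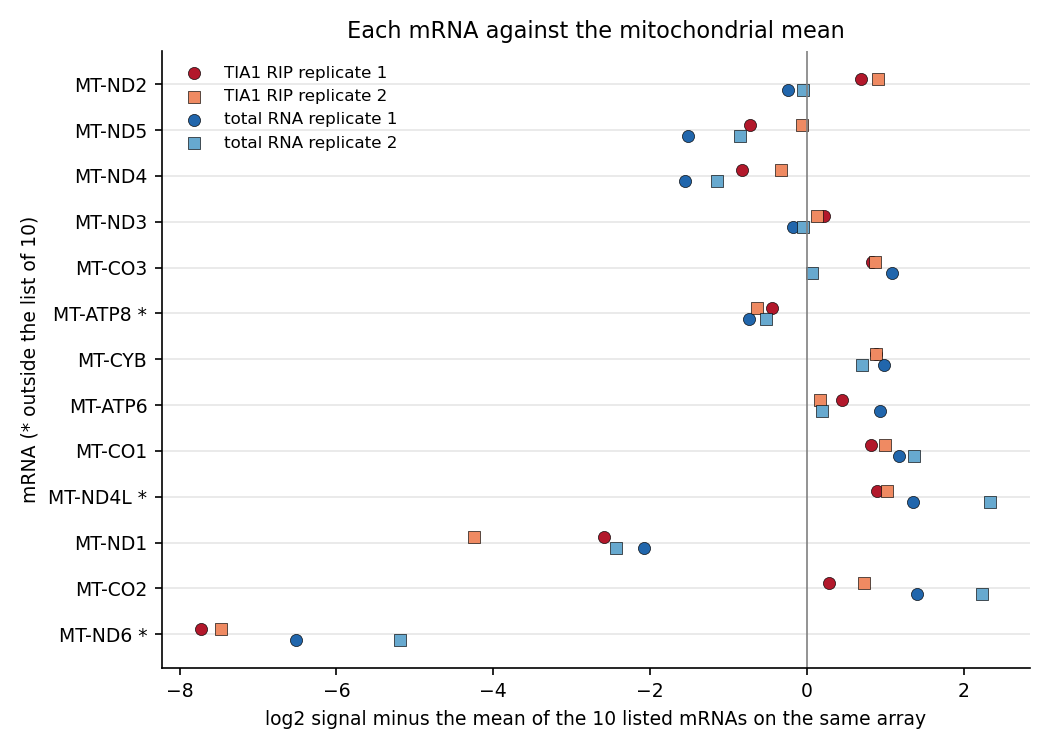
Log2 signal of each mitochondrially encoded mRNA minus the mean of the 10 listed mRNAs on the same array (x axis), in the order of the ratios (y axis), with colours and symbols for the 4 arrays. MT-ND2, MT-ND5, MT-ND4 and MT-ND3 lie farther right in both TIA1 RIP arrays than in both total RNA arrays, and MT-CO1, MT-ND4L, MT-ND1, MT-CO2 and MT-ND6 lie farther left.

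Probes that read the same RNA did not always give the same ratio. MT-ND4L and MT-ND4 are carried by a single mRNA, yet their log2 ratios were -1.95 and -0.30. The log2 signal of MT-ND4 minus that of MT-ND4L was -1.73 and -1.36 in TIA1 RIP and -2.90 and -3.49 in total RNA, without overlap. The difference between the groups was 1.65 and exceeded that of MT-ND2 from the mitochondrial mean. The pair of MT-ND4 probes gave log2 ratios of -0.66 for the brighter and 0.06 for the dimmer probe. The brighter exceeded the dimmer by 2.24 and 2.22 in TIA1 RIP and by 2.98 and 2.92 in total RNA, again without overlap. MT-ATP6 and MT-ATP8, which also share an mRNA, overlapped in the same measure, with a difference between the groups of -0.35 (their log2 ratios were -1.33 and -0.97). MT-ND2 minus MT-CO2 gave a difference between the groups of 2.25. This pair was picked for the highest and lowest ratio of the list, so its difference cannot be weighed against that between probes. The values of MT-ND4 against MT-ND4L also rest on the mean of the MT-ND4 probes (-0.30). The dimmer of these probes (0.06) lay farther from MT-ND4L (-1.95) than this mean did. The position of each probe within its mRNA was not analysed here.

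The probes of the listed mRNAs were among the brightest of the arrays. The brightest decile of genes, by mean scaled signal over the 4 arrays, held all 10. The median log2 ratio of the 1304 genes in that decile was -0.75, against -0.12 in the next decile and 0.16 in the fifth. Signals of 7 of the 10 lay within 2-fold of the highest signal on each TIA1 RIP array (420834 and 391638), compared with 5 for the first and 0 for the second total RNA array. No spot was marked as saturated. The part of brightness in the ratios was not tested. GAPDH and ACTB, which are bright as well, had log2 ratios of -2.06 and -1.83, whereas EEF1A1, an elongation factor mRNA, had -0.45.

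**Figure D3:**
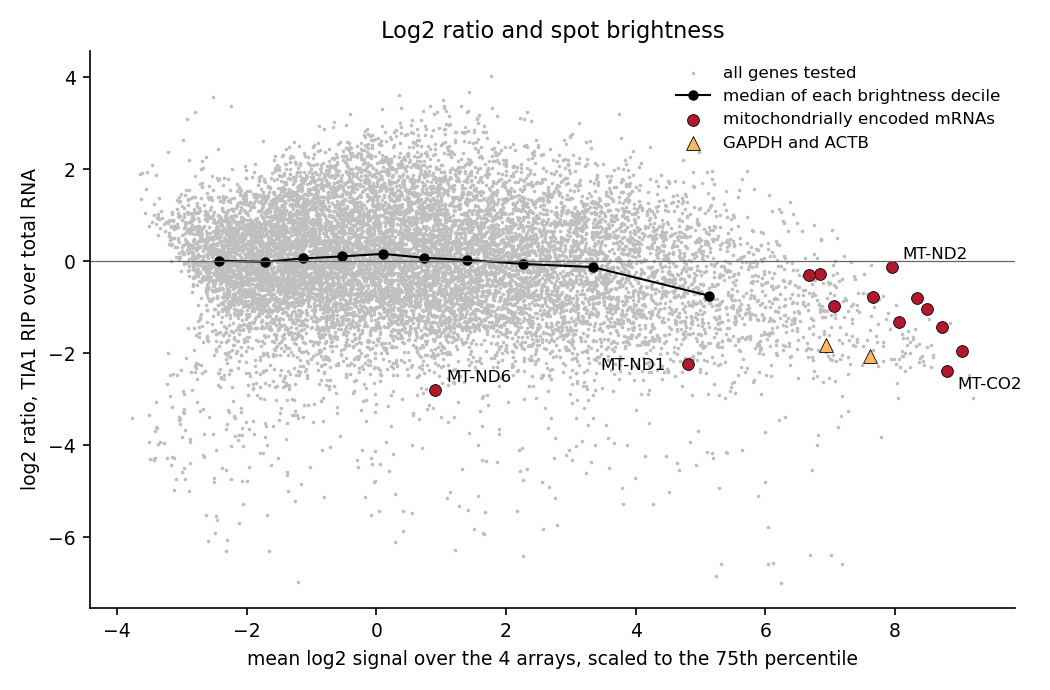
Log2 ratio of TIA1 RIP over total RNA (y axis, 75th percentile scale) against the mean scaled log2 signal over the 4 arrays (x axis) for the 13039 genes (grey), the median of each brightness decile (black), the 13 mitochondrially encoded mRNAs (red) and GAPDH and ACTB (triangles). The median falls to -0.75 in the brightest decile, where 12 of the 13 mitochondrial mRNAs lie, while MT-ND6 lies in the sixth decile; with quantile normalization or spike-in scaling the direction of most mitochondrial mRNAs turned.

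Quantile normalization, which gives all arrays the same distribution, gave the 10 mRNAs a median log2 ratio of 0.95, or 0.84 relative to the median of all genes. Under it the ratio was above 0 for 8 of the 10, with 1.80 for MT-ND2, and below 0 for MT-ND1 and MT-CO2. Scaling to the E1A spike-in controls moved the median of all genes from -0.04 to 3.83, and relative to that median the 10 mRNAs kept the value of the 75th percentile scale, -0.88. With normexp background correction of the raw signals the median of the 10 was -0.41, or -0.28 relative to the median of all genes.

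**Figure D4:**
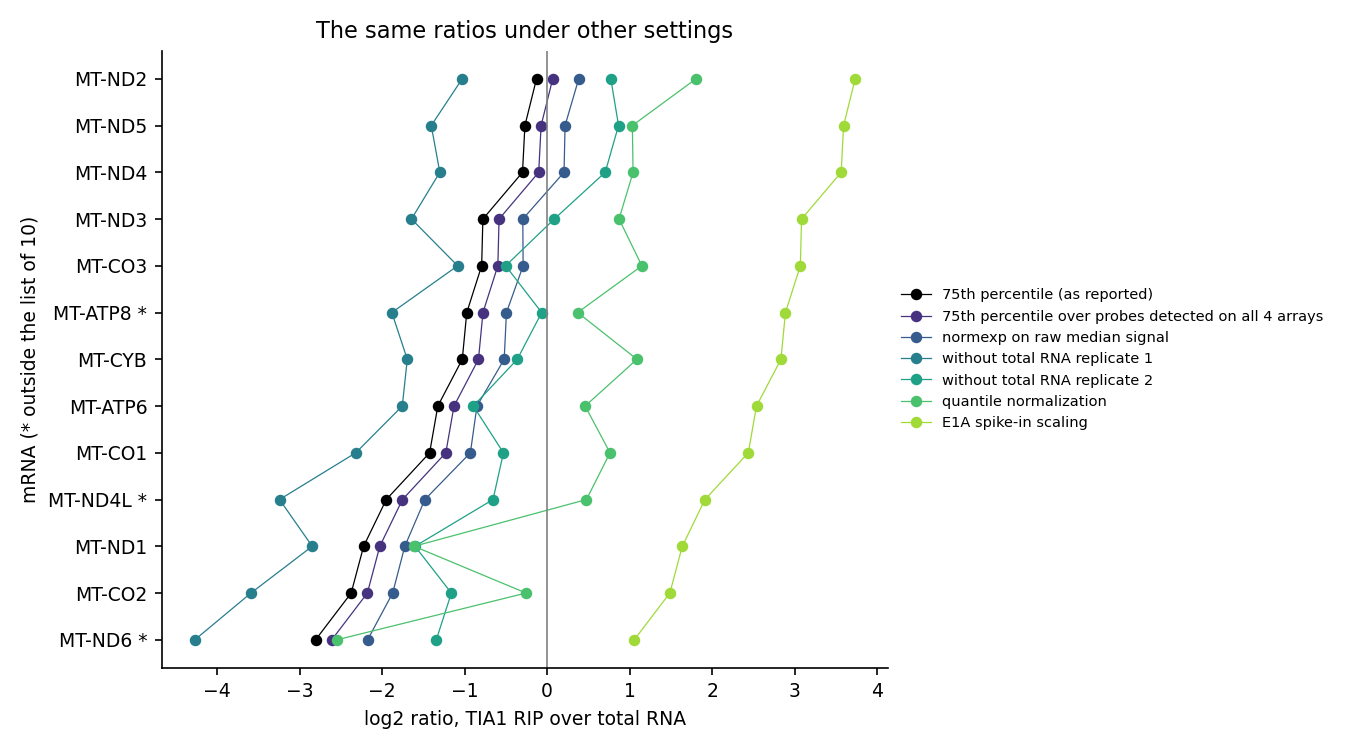
Log2 ratio of TIA1 RIP over total RNA (x axis) of each mitochondrially encoded mRNA (y axis) as reported (black) and under 6 other settings (coloured lines). The lines shift along the axis with the setting, to above 0 for most mRNAs with quantile normalization and for all with spike-in scaling, while MT-ND2 stays near the top and MT-CO2, MT-ND1 and MT-ND6 near the bottom of each.

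Most subunits of the respiratory complexes are encoded in the nucleus, and their mRNAs lie in the cytosol. The 73 detected nuclear mRNAs for complexes I, III, IV and V had a median log2 ratio of -0.90, against -0.91 for the 10 mitochondrial mRNAs. Against total RNA replicate 1 alone the medians were -0.61 and -0.43, and against total RNA replicate 2 alone -0.96 and -1.67. The median of all genes was 0.07 and -0.29 against total RNA replicates 1 and 2 alone. By complex, the nuclear subunits had a median of -0.51 for complex I (36 detected), -0.61 for complex III (9), -1.31 for complex IV (10) and -0.87 for complex V (18). For comparison, the median of the listed mitochondrial mRNAs was -0.30 for complex I (5) and -1.42 for complex IV (3). Complex II, which has no mitochondrially encoded subunit, had a median of 1.16 (4 detected). Against total RNA replicates 1 and 2 alone, the nuclear medians were -0.44 and -0.62 for complex I, -0.72 and -0.56 for complex III, -0.93 and -2.14 for complex IV, and -0.67 and -0.92 for complex V. The complex II medians were 0.81 and 1.52. These medians of log2 ratios are on the 75th percentile scale. With quantile normalization the nuclear medians were -0.03, -0.19, -0.21 and 0.01 for complexes I, III, IV and V. That of the 10 mitochondrial mRNAs was then 0.95, so the likeness of the medians did not hold under that setting.

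None of the 73 passed after adjustment, while 3 were lower (4.02% of all genes) and 0 higher (1.10% of all genes) at a p-value under 0.05 before it. Of complex I, NDUFA5, a subunit of the peripheral arm, had the highest ratio (3.18), with 3.30 and 3.03 in TIA1 RIP and 2.83 and -2.85 in total RNA, the spread between the total RNA arrays exceeding the ratio. NDUFA13 had the lowest (-2.63). In complex IV, COX5B had the lowest ratio (-2.48), and its values of 4.34 and 4.35 in TIA1 RIP lay below 5.62 and 8.03 in total RNA. Relative to GAPDH, 34 of the 73 (46.6%) passed 2.5-fold on the means, against 72.4% of all genes.

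**Figure D5:**
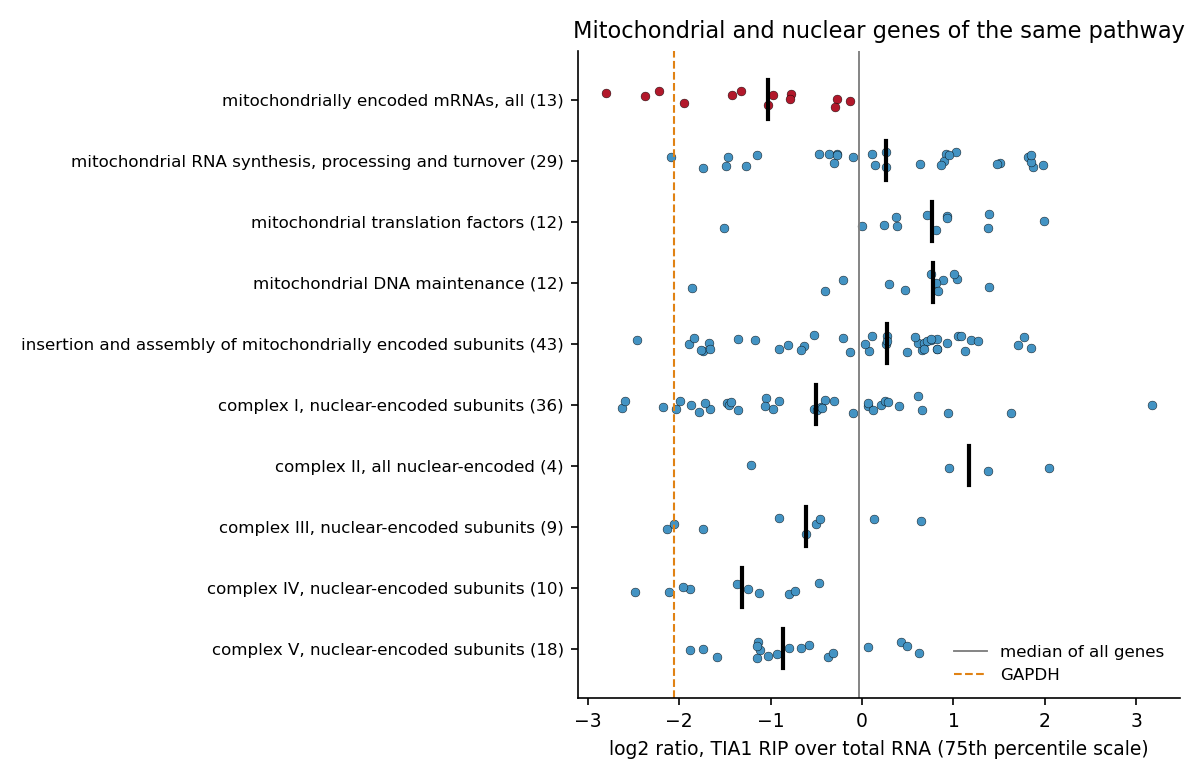
Log2 ratio of TIA1 RIP over total RNA (x axis, 75th percentile scale) of each detected gene of a list (points, number of genes in parentheses), with the median of the list (black bar), of all genes (grey line) and the ratio of GAPDH (dashed line). The 13 mitochondrially encoded mRNAs (red, median -1.03) overlap in range with the nuclear subunits of complexes III, IV and V, apart from MT-ND6 (-2.81), which lies below all of these; with quantile normalization or spike-in scaling most mitochondrial mRNAs were above 0.

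Nuclear genes also make, process and turn over mitochondrial RNA. Of 31 listed, 29 were detected, with a median log2 ratio of 0.26. None of these passed the adjusted threshold. Below 0.05 without adjustment there was only POLRMT, the mitochondrial RNA polymerase, which had the lowest ratio of the list (-2.10, unadjusted p = 0.047 and adjusted p = 0.776 from limma). Its values were 2.54 and 1.52 in TIA1 RIP and 3.52 and 4.73 in total RNA, without overlap. TRMT10C, a subunit of the mitochondrial RNase P that frees tRNAs from the precursor, had the highest ratio (1.98), which rested on total RNA replicate 2 (3.47 and 3.25 in TIA1 RIP, 3.59 and -0.83 in total RNA). The sign of the median turned with the array and the filter, with -0.54 against total RNA replicate 1 alone, 1.05 against total RNA replicate 2 alone and -0.30 over genes detected on all 4 arrays.

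The mRNAs most like the mean of the listed members over the 4 arrays were sought among 8304 nuclear genes with an mRNA accession and detected on all arrays. Likeness was the Euclidean distance between log2 profiles, each centred on its own mean. The 5 nearest were LRSAM1 (0.02), NT5C (0.07), HAMP (0.07), EXTL3 (0.08) and MLST8 (0.10), against a median distance of 1.53 for all candidates. The listed members themselves lay 0.20 to 1.67 from this mean profile, so that each of these 5 genes was nearer to it than any member. The 5 were picked as the nearest of 8304 candidates over only 4 arrays, so their nearness cannot be weighed against that of the members. HAMP was dim, with a scaled log2 signal of -2.73 and -2.64 in TIA1 RIP and -2.49 and -0.78 in total RNA. The mean profile of the members was -0.58 and -0.48 in TIA1 RIP and -0.27 and 1.33 in total RNA, with its highest value on total RNA replicate 2.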

How the data were processed

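Arrays of TIA1 RIP and total RNA of KYSE180 cells were compared, with 2 arrays per group, and the number of arrays limits the precision. The authors scanned the arrays, and the deposited Agilent Feature Extraction 10.7.1.1 output holds a fluorescence intensity per spot (processed signal, and raw median signal and background). Other deposited columns mark spots as uneven, deviant, saturated or well above background. Values are not normalized between arrays. The design build is GRCh37.

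Processed signals were converted to log2, flagged spots were left out, the 75th percentile of the array was subtracted and spots of a probe were averaged. Probes well above background in at least a share of 0.5 of their spots on both arrays of a group were kept (20100 of 50599). Symbols came from RefSeq accessions and GENCODE transcripts (34510 probes), and probes of a symbol were averaged. limma 3.58.1 in R 4.3.3 tested the groups across all genes, two-sided, with Benjamini-Hochberg adjustment and a threshold of 0.05. It was tested on simulated data. Sequences are the GRCh37 reference, and nuclear mRNAs are the longest GENCODE protein-coding transcript of a gene. Named genes are all mitochondrial mRNAs, GAPDH, ACTB, EEF1A1, the highest and lowest gene of lists of nuclear genes, and the 5 genes most alike. The members and lists were chosen with earlier results of these data known. Alternatives covered scaling, background correction, the detection filter, the probe, the reference mRNA, the fold limit, a replicate block and leaving out each array.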

Additional observations from a re-analysis of the deposited data

How the results depend on the processing

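Arrays were 2 per group, and total RNA replicate 2 was dim. The test called 0 genes in all settings with every array and without the block, between 0 and 3901 genes with an array left out and 356 with the replicate number as a block, and 0 to 2 of the 10 mRNAs with an array left out. The labels share replicate numbers, and deviations of same-numbered arrays correlated across genes (r = 0.453), but 2 pairs do not establish a pairing. With the block 0 of the 10 were called (lowest adjusted p = 0.15, MT-CO2), and MT-ND6 had an adjusted p of 0.0585. The standard error in the block fit was 0.89 for every mitochondrial mRNA. These p-values thus followed the size of the ratio and not the spread of the single mRNA. The count past 2.5-fold above GAPDH was 3 to 6 with an array left out, 6 with quantile normalization, 6 at a 2-fold limit, 7 for TIA1 RIP replicate 1 against total RNA replicate 2, and 0 with the median of all genes as the reference. The share of all genes past the fold is not given for these settings, so the changes cannot be ascribed to the mitochondrial mRNAs. The median log2 ratio was 0.95 with quantile normalization (0.84 relative to all genes), 2.95 with spike-in scaling, and -1.67 to -0.43 with an array left out. Ratios turned with quantile normalization for MT-CO1 (0.76), MT-CO3 (1.15), MT-ATP6 (0.46), MT-CYB (1.09), MT-ND2 (1.80), MT-ND3 (0.87), MT-ND4 (1.04), MT-ND5 (1.03), MT-ATP8 (0.37) and MT-ND4L (0.48). They turned with spike-in scaling for MT-CO1 (2.44), MT-CO2 (1.49), MT-CO3 (3.07), MT-ATP6 (2.54), MT-CYB (2.83), MT-ND1 (1.64), MT-ND2 (3.73), MT-ND3 (3.08), MT-ND4 (3.56), MT-ND5 (3.59), MT-ATP8 (2.89), MT-ND4L (1.91) and MT-ND6 (1.06). They turned with normexp for MT-ND2 (0.38), MT-ND4 (0.20) and MT-ND5 (0.22), and with the percentile over probes detected on all arrays for MT-ND2 (0.0674). With an array left out, ratios ranged from -1.03 to 0.77 for MT-ND2, from -1.64 to 0.0863 for MT-ND3, from -1.30 to 0.70 for MT-ND4 and from -1.40 to 0.87 for MT-ND5. The cause of these shifts was not tested.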

Other observations

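The nuclear genes for the translation factors of mitochondria had a median log2 ratio of 0.76 on the 75th percentile scale (12 of 12 detected). None passed the adjusted threshold in limma, and 0 had an unadjusted p-value under 0.05. MTIF2, an initiation factor, had the highest ratio (1.99), with 1.89 and 1.47 in TIA1 RIP and 2.62 and -3.25 in total RNA, so that it lay below total RNA replicate 1 and above total RNA replicate 2. TUFM, the elongation factor that brings tRNAs to the mitochondrial ribosome, had the lowest ratio (-1.51), and its 5.76 and 5.70 in TIA1 RIP lay below 6.50 and 7.98 in total RNA. With only the first or only the second total RNA array, the median of the list was -0.18 or 1.93.

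Genes that maintain mitochondrial DNA had a median log2 ratio of 0.78 (12 of 12 detected), which was 0.10 with only the first total RNA array, 1.00 with only the second and 0.000207 with normexp background correction. Ratios ran from 1.39 for the exonuclease MGME1 to -1.86 for POLG, the catalytic subunit of the mitochondrial DNA polymerase. POLG had 0.78 and 1.15 in TIA1 RIP and 1.98 and 3.65 in total RNA, without overlap. Genes for the insertion and assembly of the encoded subunits had a median of 0.28 (43 of 46 detected), or 0.08 and 0.68 against total RNA replicates 1 and 2 alone, with ratios from 1.85 for COA5 to -2.47 for UQCC3, which at an unadjusted p-value of 0.0355 in limma (adjusted p = 0.776) was the only member of this list under 0.05. In complex II, SDHD, a membrane anchor, had a ratio of 2.04 (unadjusted p = 0.0336 and adjusted p = 0.776 from limma), with 3.18 and 3.21 in TIA1 RIP and 1.40 and 0.90 in total RNA, and SDHA had -1.22. None of the genes in these lists passed the adjusted threshold.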
